A study of Mus musculus with 23 samples.

Results

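Hepcidin, the peptide hormone that controls how much iron enters the blood, was followed here with 8 other iron handling genes in fat and skeletal muscle of mice carrying mutant alleles of Bub1b. Bub1b encodes BubR1, a kinase-like protein of the mitotic checkpoint whose loss of function causes mosaic variegated aneuploidy (MVA) syndrome, a disorder with features of early ageing. The genes are Hamp (hepcidin), Hamp2, Tfr2, Tfrc, Slc40a1, Fth1, Ftl1, Bmp6 and Trf. They were taken by symbol, 9 of the 24062 symbols of the deposited count table. Hamp and Tfr2 were picked because they differed in mutant fat, and the other 7 because they work with these genes in iron handling. The fat values of Hamp and Tfr2 in mutants and WT are therefore given as a description with no test.

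RNA was sequenced from whole fat (labelled IAT) and whole gastrocnemius, a calf muscle, of naturally aged mice 8 to 10 months old on a mixed 129Sve/C57BL/6 background. HL1002P mice carried 1 hypomorphic H allele of Bub1b and 1 allele with the L1002P missense change, HH mice carried the H allele on both chromosomes, and WT mice carried neither. Fat had 4 HL1002P, 4 HH and 4 WT libraries, and gastrocnemius had 4 HL1002P, 3 HH and 4 WT libraries. In these whole-body mutants a level in 1 tissue was measured in an animal whose liver, spleen and gut carried the same alleles. The labels do not say which fat and muscle libraries came from the same mouse, and nothing beyond the sample labels says that replicates were separate animals, so p-values measure the spread between these samples.

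Fat libraries held 22552184 to 58828571 counts and gastrocnemius libraries 34137821 to 55266273 counts. Levels are given as CPM, counts scaled to library size, on which 3 counts corresponded to 0.051 to 0.133 CPM in fat and 0.0543 to 0.0879 CPM in gastrocnemius. Bub1b had 0.181 to 0.273 CPM in HL1002P, 0.326 to 0.52 CPM in HH and 0.726 to 0.951 CPM in WT gastrocnemius, with no overlap. In fat Bub1b spanned 6.12 to 22.1 CPM in HL1002P, 5.96 to 14.3 CPM in HH and 7.08 to 11.6 CPM in WT, so its level did not separate the labelled genotypes there. Xist and Y-linked transcripts marked 1 HL1002P, 1 HH and 2 WT fat libraries as female, and 2 HL1002P, 1 HH and 2 WT muscle libraries. HL1002P replicate 4, HH replicate 1 and WT replicate 3 of fat carried 6168 to 17000 summed CPM of 10 skeletal muscle genes, against at most 1616 CPM in the other fat libraries. Fat and muscle RNA were extracted with different column kits, so kit and tissue cannot be told apart.

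As background, hepcidin is made mainly by hepatocytes and binds ferroportin, the iron exporter encoded by Slc40a1, which is then degraded, so that iron stays inside macrophages and gut cells. BMP6 from endothelial cells drives Hamp transcription through SMAD proteins, interleukin-6 drives it through STAT3, and TFR2 on hepatocytes senses iron-loaded transferrin (Trf) and feeds the same pathway. Most cells take up transferrin through TFR1 (Tfrc) and store iron in ferritin, built of Fth1 and Ftl1 chains, while iron regulatory proteins bind hairpins in the mRNAs of Tfrc, Slc40a1 and the ferritin genes and set their decay or translation. Adipocytes and tissue macrophages handle iron with the same set of proteins.

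Hamp and its mouse duplicate Hamp2 lie on chromosome 7 of mm10, minus strand, Hamp at chr7:30942368-30944032 and Hamp2 at chr7:30922372-30924681, with 3 exons each. Their transcripts were identical in 92.4% of aligned positions, and 16.6% of the 50-base stretches of Hamp were also in Hamp2, so a part of the reads of either gene can fit both. The stretch of each promoter that holds the BMP and STAT elements known from the hepcidin promoter is shown because Hamp and Hamp2 differ in it. Sequences are from RefSeq (GRCm38.p6), written 5′ to 3′ on the gene's strand, and capitals mark matches to GGCGCC, the BMP responsive element, and TTCNNNGAA, the STAT element. They cover chr7:30944079-30944198, which is 169 to 50 bases before the RefSeq start of Hamp, and chr7:30924228-30924347, which is 166 to 47 bases before the RefSeq start of Hamp2. The Hamp2 span given above is from GENCODE and begins further upstream, so the Hamp2 stretch lies inside that span.
Hamp: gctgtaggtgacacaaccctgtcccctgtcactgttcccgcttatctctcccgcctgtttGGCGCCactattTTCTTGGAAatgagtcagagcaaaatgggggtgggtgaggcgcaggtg
Hamp2: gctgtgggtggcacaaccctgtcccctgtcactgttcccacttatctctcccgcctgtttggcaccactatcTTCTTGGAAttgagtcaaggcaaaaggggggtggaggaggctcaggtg

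The stretches were identical at 108 of 120 bases (90%). GGCGCC stood at position 61 of the Hamp stretch, counted from its 5′ end, and the substitution G64A (Hamp base first) left no GGCGCC in Hamp2. TTCNNNGAA stood at position 73 in both. On both strands of all 32851 promoter windows in the RefSeq table, each 300 bases long and reaching past the start, GGCGCC was in 11.9%, TTCNNNGAA in 8.3%, the E-box CACGTG in 7.15% and CAGTGN, the loop of an iron responsive element, in 55.8%. None of these motifs overlaps another within the shown stretches. Of the 9 genes, all but Slc40a1 and Trf had windows in the table, 11 in all. GGCGCC was also in a Tfrc window and CACGTG in the Bmp6 window. A match describes these letters only and is not a measured binding site.

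Hamp was near the counting floor in WT fat and higher in every mutant fat library. It had 15.8, 7.95, 4.33 and 3.43 CPM in the 4 HL1002P fat libraries, 4.02, 5.76, 8.18 and 5.39 CPM in the 4 HH libraries and 0.0443, 0.513, 0.168 and 0.199 CPM in the 4 WT libraries (replicates 1 to 4). These values rest on 101 to 552 counts per library in HL1002P, 163 to 289 in HH and 2 to 16 in WT. The lowest mutant library stood above the highest WT library, and HL1002P replicate 1 was the highest of all. The means were 7.89 ± 5.64 CPM in HL1002P, 5.83 ± 1.73 CPM in HH and 0.231 ± 0.199 CPM in WT (SD, n = 4 each), 34.1-fold and 25.3-fold above WT. The fitted log2 fold changes were 5.12 ± 0.71 for HL1002P and 4.69 ± 0.70 for HH (SE). Both mutants are set against the same 4 WT libraries, here and throughout. Across all 16266 genes tested in fat, 15.1% stood higher in every HL1002P library than in every WT library and 15% did so in HH, and since Hamp was chosen for this difference nothing is read from these shares. Using only the libraries with Y-linked transcripts, the log2 fold changes of Hamp were 5.15 for HL1002P and 4.51 for HH. Without WT replicate 2 they were 5.83 and 5.41, and without HL1002P replicate 1 the HL1002P value was 4.53.

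**Figure D1:**
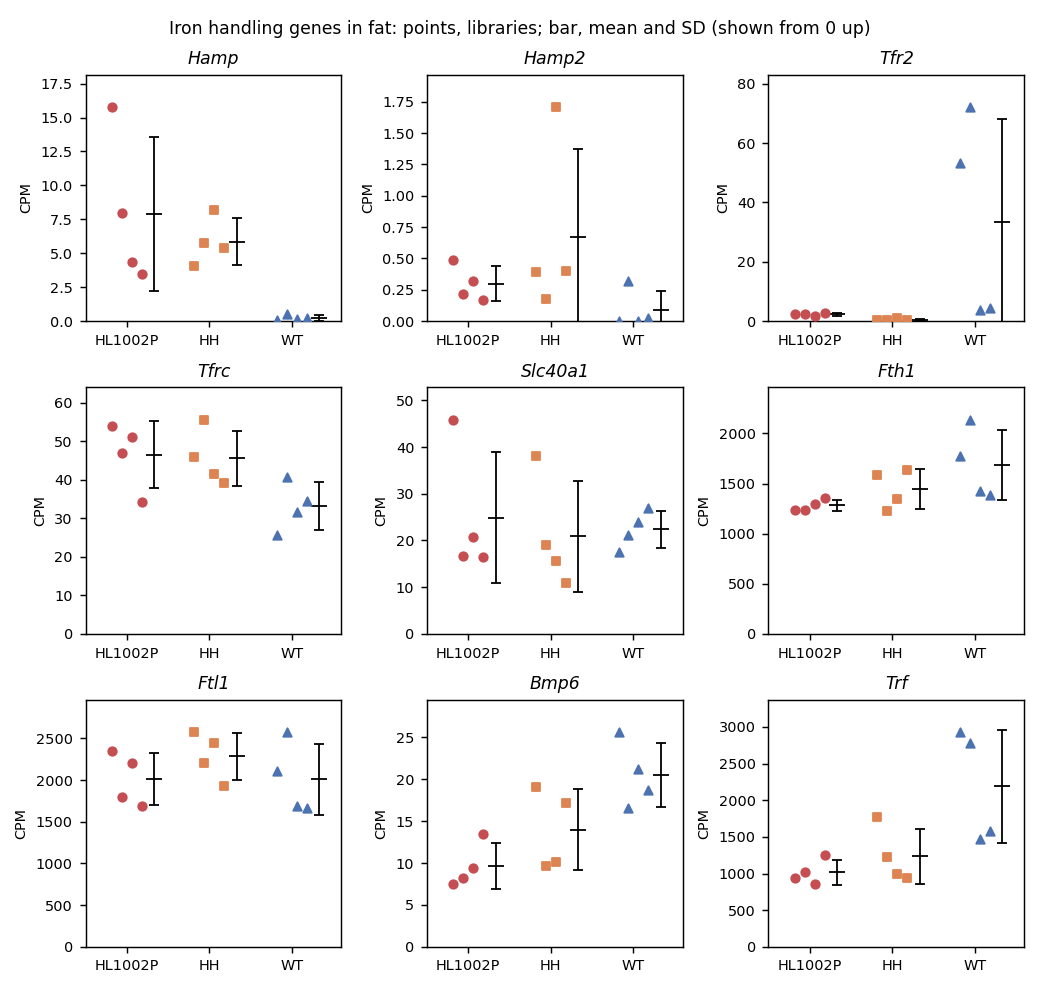
Normalised level of the 9 iron handling genes in fat, in CPM on a linear axis starting at 0 for each gene. Points are the libraries of HL1002P, HH and WT mice (4 each, replicate 1 at the left of its group), and bars are the mean and SD, drawn from 0 up; Hamp is 3.43 to 15.8 CPM in HL1002P, 4.02 to 8.18 CPM in HH and at most 0.513 CPM in WT, and Tfr2 is 53.3 and 72.3 CPM in WT replicates 1 and 2 and at most 4.30 CPM in the other libraries.

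Genes of other cell types moved with Hamp in these whole-tissue libraries, and their part in the result was not tested. In bulk tissue, fewer cells of a type and less RNA per cell cannot be told apart, and the same holds for more. Among all genes tested in fat, edgeR called 31.8% in HL1002P and 20.8% in HH at adjusted p under 0.05, rises and falls together. The summed level of 8 lymph node stroma genes was 1039 to 1359 CPM in HL1002P, 807 to 1211 CPM in HH and 11 to 339 CPM in WT fat, and 6 of its 7 tested genes rose in each mutant, with Ccl21a listed at 0 in every fat library. Of 10 B cell genes, 10 rose in HL1002P and 9 in HH, with sums of 1251 to 3584 CPM, 1637 to 3198 CPM and 24.2 to 622 CPM in HL1002P, HH and WT. Cr2 and Fcer2a are on both lists, so the lymph node stroma and B cell sums are not separate readings. Of 10 T cell genes, 10 rose in HL1002P and 8 in HH, with sums of 627 to 1205 CPM, 591 to 1260.4 CPM and 88.1 to 312 CPM. The sum of 10 genes of iron-recycling macrophages, among them Spic, Cd163 and Hmox1, was 356 to 1320.2 CPM in HL1002P, 638 to 1434 CPM in HH and 253 to 349 CPM in WT, and 5 of 9 tested genes rose in each mutant. On average Spic, Cd163 and Hmox1 made up a small part of the mutant sums, most of which came from other genes of the list. Spic, a transcription factor of red pulp macrophages, averaged 22.9 CPM in HL1002P, 20.7 CPM in HH and 3.26 CPM in WT fat. The haptoglobin-haemoglobin receptor gene Cd163 averaged 35.8 CPM, 49.8 CPM and 58.2 CPM in HL1002P, HH and WT and was not called (edgeR adjusted p = 0.0951 in HL1002P and 0.605 in HH). Hmox1, haem oxygenase, averaged 96.8 CPM, 104 CPM and 75.9 CPM and was not called (edgeR adjusted p = 0.505 and 0.41), and Vsig4 averaged 0.498 CPM, 1.03 CPM and 1.48 CPM.

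The 12 hepatocyte genes, markers of the main source of hepcidin, had unequal levels in fat. Ttr, Fga, Tat, Ahsg, Apoa1 and Apoa2 were at 0 or low in every fat library: Ttr was at 0 in all HL1002P libraries and at most 0.264 CPM in HH and 0.0443 CPM in WT, and the highest value of the 6 genes in any library was 0.577 CPM, of Apoa2 in WT. Alb, the albumin gene, was present in all groups and averaged 18.2 CPM in HL1002P, 31.1 CPM in HH and 24.8 CPM in WT. Serpina1a averaged 2.22 CPM, 3.02 CPM and 3.75 CPM, and Serpina1c 1.51 CPM, 2.02 CPM and 5.25 CPM in HL1002P, HH and WT. Fgb and Fgg varied between libraries, Fgb up to 17.1 CPM in HL1002P, 0.264 CPM in HH and 37.6 CPM in WT, and Fgg up to 21.6 CPM, 1.75 CPM and 13.6 CPM. The summed level of 12 hepatocyte genes was 322 to 747 CPM in HL1002P, 611 to 1867 CPM in HH and 145 to 331 CPM in WT, most of it Cyp2e1, which averaged 480.2 CPM, 1217 CPM and 192 CPM in these groups. Of the 8 hepatocyte genes tested, 1 rose and 1 fell in each mutant (25% called, against 31.8% of all genes in HL1002P and 20.8% in HH). The 10 adipocyte genes summed to 11460.2 to 21394 CPM in HL1002P, 13123 to 29498 CPM in HH and 19707 to 41560.4 CPM in WT, and 5 of 10 fell in HL1002P while 1 rose in HH.

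**Figure D2:**
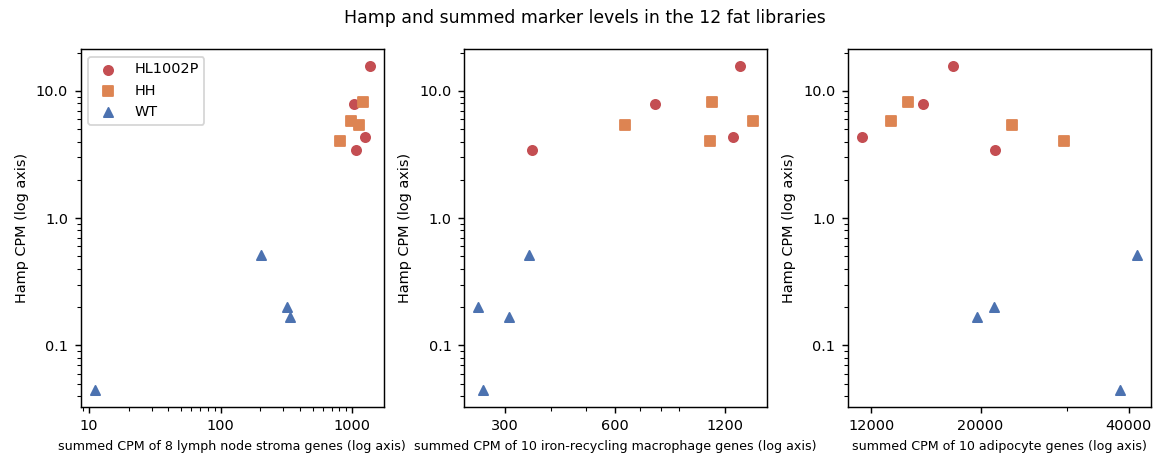
Hamp CPM on the vertical log axis against the summed CPM of 8 lymph node stroma, 10 iron-recycling macrophage and 10 adipocyte genes on horizontal log axes, 1 point per fat library. Mutant libraries lie at 807 to 1359 CPM of lymph node stroma genes and WT libraries at 11 to 339 CPM, while the adipocyte sums of mutants and WT overlap. Cr2 and Fcer2a of the lymph node stroma list are also on the B cell list.

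Hamp2, whose product is not known to replace hepcidin in the control of iron, was low throughout. It had 0.487, 0.214, 0.321 and 0.17 CPM in HL1002P fat, 0.392, 0.179, 1.71 and 0.396 CPM in HH fat, and 0, 0.32, 0 and 0.0248 CPM in WT fat. HH replicate 3 was the highest, and WT replicate 2 lay within the range of the mutants, so the groups overlapped. Fitted log2 fold changes were 1.93 ± 1.17 in HL1002P (edgeR quasi-likelihood test with Benjamini-Hochberg adjustment over all genes, adjusted p = 0.212) and 3.06 ± 1.18 in HH (adjusted p = 0.0809). Without WT replicate 2 it was 4.92 in HL1002P (edgeR adjusted p = 0.0266) and 6.05 in HH (adjusted p = 0.0296), and DESeq2 over all libraries gave adjusted p = 0.0334 in HH. The exons of Hamp2 overlap those of Gm44662, and the library kit keeps no strand, so reads from the overlapping part cannot be told apart. Of the 50-base stretches of Hamp2, 28% were shared with other annotated genes, mostly with Hamp.

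Tfr2, the iron-sensing transferrin receptor (chr5:137569840-137587481, plus strand, 20 exons), moved the other way. It had 2.24, 2.51, 1.69 and 2.62 CPM in HL1002P fat, 0.474, 0.359, 0.959 and 0.198 CPM in HH fat, and 53.3, 72.3, 3.58 and 4.30 CPM in WT fat. Every mutant library was below every WT library, and WT split into replicates 1 and 2, which carried Y-linked transcripts and were high, and replicates 3 and 4, which carried Xist and were close to HL1002P. The same WT pairs differed in the sum of 12 mammary epithelium genes, 2.54 and 4.36 CPM against 2318 and 1883 CPM. HH replicate 2, which carried Y-linked transcripts, had 1115 CPM of these genes. The part of sex and of tissue content in the WT split was not tested. The means were 2.27 ± 0.413 CPM in HL1002P, 0.498 ± 0.328 CPM in HH and 33.4 ± 34.9 CPM in WT (SD, n = 4 each), which put WT 14.7-fold above HL1002P and 67.1-fold above HH. The fitted log2 fold changes were -3.88 ± 0.91 and -6.09 ± 1.03 in HL1002P and HH (SE). With sex as a term in the fit they were -3.38 and -6, and over the libraries with Y-linked transcripts alone -4.86 and -6.78. Without WT replicate 2 they were -3.16 and -5.35. The share of all genes lower in every mutant than in every WT library was 12.4% for HL1002P and 10.9% for HH.

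Of the 7 genes that had not been chosen on mutant fat, 2 fell in HL1002P fat and 0 changed in HH fat. Over all genes 31.8% were called at adjusted p under 0.05 in HL1002P fat and 20.8% in HH fat, and 14.5% were called and lower in HL1002P, so 2 of 7 is near the background. In HH fat 3 of these 7 genes had an unadjusted edgeR p under 0.05, against 39.5% of all genes, and DESeq2 called 2. The marker sums given above differed between the same groups of fat libraries, and their part in the results that follow was not tested.

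Bmp6, the main BMP ligand upstream of hepcidin in liver (chr13:38345107-38500302, plus strand, 7 exons), fell in HL1002P fat. It had 7.45, 8.27, 9.37 and 13.5 CPM in HL1002P fat, 19.1, 9.66, 10.1 and 17.2 CPM in HH fat, and 25.6, 16.6, 21.2 and 18.7 CPM in WT fat. All HL1002P libraries were below all WT libraries, as for 12.4% of all genes, while HH replicates 1 and 4 lay among WT. The log2 fold change was -1.09 ± 0.27 in HL1002P (edgeR adjusted p = 0.0153) and -0.55 ± 0.27 in HH (adjusted p = 0.148). Without HL1002P replicate 1 the adjusted p was 0.0521. Of 10 endothelial genes, the cells that make BMP6 in liver, 6 fell and 1 rose in HL1002P fat, where 14.5% of all genes were called and lower. In HH fat, where Bmp6 was not called, 4 of them fell and 1 rose (50% called, against 20.8% of all genes). The sum of these endothelial genes was 964 to 1291 CPM in HL1002P, 1049 to 1413 CPM in HH and 1224 to 1879 CPM in WT, alongside Bmp6. Some exons of Bmp6 overlap Txndc5, and 4.94% of its 50-base stretches are shared with it.

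Trf, which encodes transferrin, the iron carrier of plasma (chr9:103204001-103230444, minus strand, 17 exons), also fell in HL1002P fat. It had 936, 1020, 859 and 1251 CPM in HL1002P fat, 1768, 1221, 998 and 945 CPM in HH fat, and 2926, 2788, 1469 and 1586 CPM in WT fat. All HL1002P libraries were below WT without overlap, as for 12.4% of all genes. HH replicate 1 lay within WT, and WT again divided into a high pair (replicates 1 and 2) and a low pair. Its log2 fold change was -1.11 ± 0.29 in HL1002P (edgeR adjusted p = 0.0177) and -0.83 ± 0.29 in HH (adjusted p = 0.0582). The HL1002P call was lost without WT replicate 1 (adjusted p = 0.0544) and without HL1002P replicate 1, 2 or 3 (adjusted p = 0.0569, 0.0538 and 0.0577). Trf was called in HH by DESeq2 (adjusted p = 0.0161) and by edgeR over the libraries with Y-linked transcripts (adjusted p = 0.0168), without the 3 muscle-rich libraries (adjusted p = 0.0107), without WT replicate 3 (adjusted p = 0.0311) and without HH replicate 1 (adjusted p = 0.0332). Of its 50-base stretches 79.8% are shared with the overlapping annotation Gm20425, so reads of the pair may have been split or set aside.

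Tfrc encodes TFR1, the receptor that brings transferrin into cells (chr16:32608920-32632794, plus strand, 19 exons). It had 53.8, 47, 51.1 and 34.1 CPM in HL1002P fat, 45.8, 55.6, 41.6 and 39.1 CPM in HH fat, and 25.6, 40.7, 31.7 and 34.4 CPM in WT fat. Most mutant libraries were above WT, but HL1002P replicate 4 and HH replicate 4 lay below WT replicate 2, so the groups overlapped. The log2 fold change of 0.49 ± 0.18 in HL1002P (edgeR adjusted p = 0.0546) and 0.46 ± 0.18 in HH (adjusted p = 0.0821) did not pass the threshold. In HL1002P it passed with DESeq2 (adjusted p = 0.0432), with genes kept at a mean of 1 CPM (adjusted p = 0.0451), without HL1002P replicate 4 (adjusted p = 0.0109), without WT replicate 2 (adjusted p = 0.0469) and without the 3 muscle-rich libraries (adjusted p = 0.0342).

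Tfrc, Slc40a1, Fth1 and Ftl1 are the genes of this group whose mRNAs carried an iron responsive element, the hairpin that iron regulatory proteins bind. The elements are shown because an mRNA level alone does not tell how much of the mRNA is translated. The pattern searched was a bulged C, then 5 bases, the loop CAGTGN without G in its last place, and 5 bases that pair with the first 5, with G-T pairs allowed, on the transcript strand of the first-listed GENCODE M21 transcript. It occurred in 174 of 21291 coding transcripts (0.817%). Capitals mark the loop. The 4 Tfrc elements that this pattern found lie in its 3′ UTR, at chr16:32631219-32631248, chr16:32631598-32631627, chr16:32631663-32631692 and chr16:32631710-32631739 on the plus strand. Elements with another loop would be missed. The others lie in the 5′ UTR, of Slc40a1 at chr1:45925464-45925493 on the minus strand, of Fth1 at chr19:9982732-9982761 on the plus strand and of Ftl1 at chr7:45459778-45459807 on the minus strand.
Tfrc a: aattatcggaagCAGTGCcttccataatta
Tfrc b: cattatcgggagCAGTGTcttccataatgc
Tfrc c: ctatatcggagaCAGTGAtctccatatgtt
Tfrc d: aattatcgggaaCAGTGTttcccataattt
Slc40a1: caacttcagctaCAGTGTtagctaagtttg
Fth1: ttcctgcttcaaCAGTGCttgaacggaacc
Ftl1: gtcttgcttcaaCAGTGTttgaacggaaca

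Slc40a1, the ferroportin gene (chr1:45908068-45926523, minus strand, 8 exons), had 45.9, 16.7, 20.7 and 16.4 CPM in HL1002P fat, 38, 19, 15.7 and 11 CPM in HH fat, and 17.5, 21.1, 23.9 and 26.9 CPM in WT fat. Replicate 1 of each mutant was above all WT libraries and the other mutant libraries lay within or below the WT range, so the groups overlapped. The log2 fold change was 0.16 ± 0.41 in HL1002P (edgeR adjusted p = 0.778) and -0.094 ± 0.41 in HH (adjusted p = 0.877).

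The ferritin chains were among the most abundant transcripts of the group and moved little. Fth1, the heavy chain with ferroxidase activity (chr19:9980598-9985098, plus strand, 4 exons), had 1240.3, 1237, 1297 and 1358 CPM in HL1002P fat, 1584, 1223, 1343 and 1631 CPM in HH fat, and 1769.9, 2138, 1429 and 1389 CPM in WT fat. HL1002P lay just below the lowest WT library (12.4% of all genes were lower without overlap), and HH overlapped WT. Fth1 had a log2 fold change of -0.39 ± 0.18 in HL1002P (edgeR adjusted p = 0.11) and -0.22 ± 0.18 in HH (adjusted p = 0.374). In HL1002P it passed with DESeq2 (adjusted p = 0.0479) and over the libraries with Y-linked transcripts (edgeR adjusted p = 0.0328). Ftl1, the light chain that helps the iron core form (chr7:45457944-45459884, minus strand, 4 exons), averaged 2013 ± 316 CPM in HL1002P, 2288 ± 282 CPM in HH and 2008 ± 428 CPM in WT fat (SD, n = 4 each), all overlapping. Its log2 fold change was 0.0038 ± 0.2 in HL1002P (edgeR adjusted p = 0.989) and 0.19 ± 0.2 in HH (adjusted p = 0.495). Ftl1 shares 90.6% of its 50-base stretches with 17 other annotated genes, pseudogenes among them, and its counts depend on how such reads were treated.

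**Figure D3:**
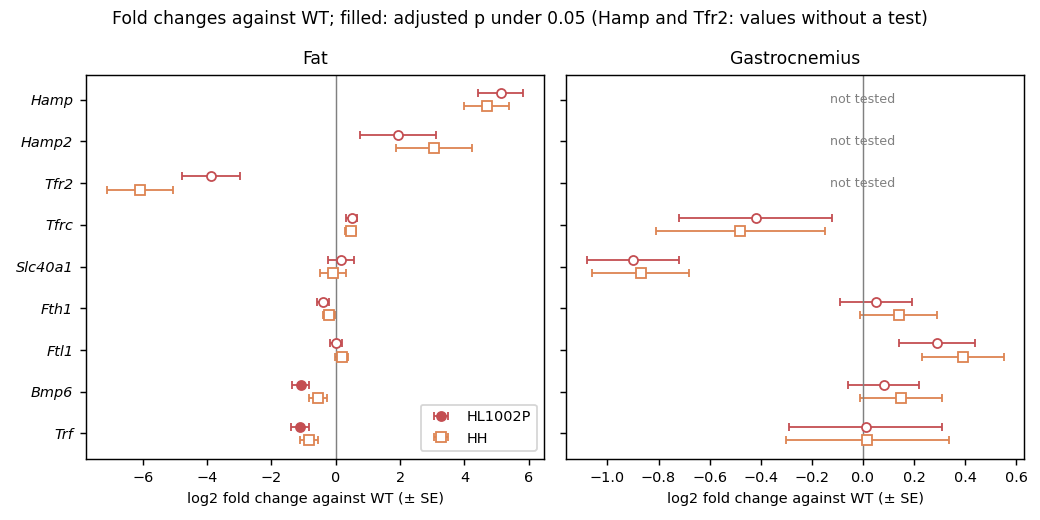
Log2 fold change against WT with its SE for the 9 genes in fat (left) and for the 6 genes tested in gastrocnemius (right), HL1002P as circles and HH as squares. Filled symbols, Bmp6 and Trf in HL1002P fat, have an edgeR adjusted p under 0.05; Hamp and Tfr2 in fat are shown without a test, and the horizontal scales of the panels differ.

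HL1002P and HH fat were also set against each other. None of the genes that had not been chosen on mutant fat was called by edgeR or DESeq2, and none had an unadjusted edgeR p under 0.05. Over all genes edgeR called 0%, that is 0 of 16266 genes, with 535 (3.29%) at an unadjusted p under 0.05 and 20 called by DESeq2. Hamp and Tfr2 were chosen on mutant fat, so their differences are given with no test. Tfr2 stood higher in all HL1002P than in all HH libraries, with a log2 difference of 2.21 ± 0.90, and 1.14% of all genes were higher in HL1002P without overlap. For Hamp the difference was 0.44 ± 0.59 and -0.15 without HL1002P replicate 1, and for Bmp6 -0.54 ± 0.27.

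In gastrocnemius Hamp was not detected outside 1 library. HL1002P replicate 3 had 2 counts (0.0467 CPM), and all other HL1002P, HH and WT libraries had 0, which allows up to 0.0543 to 0.0879 CPM by counting error alone. Hamp2 had 0.115, 0.181, 0.233 and 0.2 CPM in HL1002P, 0.233, 0.159 and 0.0217 CPM in HH, and 0.0221, 0.0348, 0.0519 and 0.0465 CPM in WT gastrocnemius. These values rest on 33, 19 and 7 counts over the libraries of each group. HL1002P did not overlap WT, which held for 3.09% of the tested genes in the direction of higher, but Hamp2 failed the filter on low counts and was not tested. Tfr2 had 0.0864, 0.0226, 0 and 0.109 CPM in HL1002P, 0, 0.0398 and 0.0867 CPM in HH, and 0.0885, 1.43, 0.207 and 0.093 CPM in WT, with WT replicate 2 far above the rest, and it was not tested either.

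None of the 6 genes tested in gastrocnemius was called in either mutant. For HL1002P 1 of 6 had an unadjusted edgeR p under 0.05 and DESeq2 called 1, and for HH these counts were 2 and 1. Over all 14580 genes tested there, edgeR called 0.117% in HL1002P and 0.377% in HH, and 10.5% and 16.6% had an unadjusted p under 0.05. Slc40a1 had 10.5, 13.6, 11.6 and 16.9 CPM in HL1002P, 11.9, 15.1 and 13.2 CPM in HH, and 23.4, 21.5, 20.5 and 32.6 CPM in WT gastrocnemius. Every mutant library was below every WT library, which held for 1.25% of all genes. The log2 fold change was -0.90 ± 0.18 in HL1002P (edgeR adjusted p = 0.107) and -0.87 ± 0.19 in HH (adjusted p = 0.0718). DESeq2 gave adjusted p = 0.00135 for HL1002P and 0.00279 for HH.

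The other tested genes overlapped between mutant and WT muscle. Tfrc had 69.7, 83.9, 74.2 and 49.4 CPM in HL1002P, 94.2, 67 and 38.8 CPM in HH, and 105, 139, 59.95 and 65.9 CPM in WT, a log2 fold change of -0.42 ± 0.30 in HL1002P (edgeR adjusted p = 0.659) and -0.48 ± 0.33 in HH (adjusted p = 0.501). Ftl1 averaged 270.2 ± 52.8 CPM in HL1002P, 290.1 ± 25.4 CPM in HH and 222 ± 33 CPM in WT, with edgeR adjusted p = 0.518 and 0.248 for HL1002P and HH. Fth1 averaged 1732 ± 177 CPM in HL1002P, 1848 ± 412 CPM in HH and 1672 ± 148 CPM in WT. The muscle means of Bmp6 were 11.4 ± 2.18 CPM in HL1002P, 11.9 ± 1.53 CPM in HH and 10.7 ± 0.919 CPM in WT. Trf in muscle was 59.3 ± 14.3 CPM, 59.6 ± 19.4 CPM and 58.8 ± 25.6 CPM in HL1002P, HH and WT (SD, n = 4, 3 and 4). HL1002P and HH gastrocnemius were also compared with each other: no gene of the 6 was called by edgeR or DESeq2, 0 had an unadjusted p under 0.05 (4.6% of all genes did), and 0.0206% of all genes were called.

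**Figure D4:**
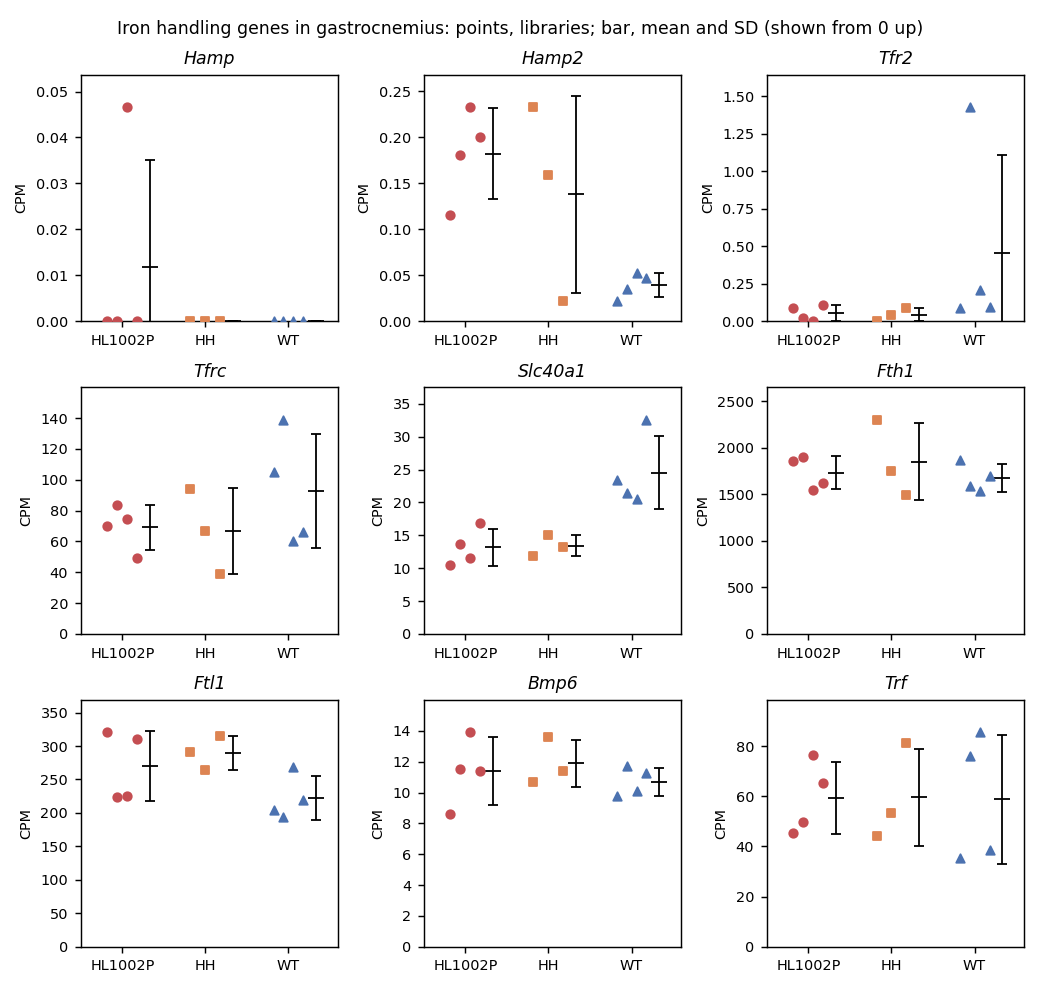
Normalised level of the 9 genes in gastrocnemius, in CPM on a linear axis from 0 for each gene. Points are the 4 HL1002P, 3 HH and 4 WT libraries and bars are the mean and SD, drawn from 0 up; Slc40a1 is 10.5 to 16.9 CPM in HL1002P, 11.9 to 15.1 CPM in HH and 20.5 to 32.6 CPM in WT.

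Whether a mutant's difference from WT was unequal in the 2 tissues was tested as an interaction over all 23 libraries, for the genes measured in both. Of the 6 genes eligible, 1 was called for HL1002P and 0 for HH, where 1 had an unadjusted edgeR p under 0.05 (28.2% of all genes did). Over all 11870 genes 19% were called for HL1002P and 7.39% for HH. The gene called was Bmp6: its log2 fold change in HL1002P was lower in fat than in gastrocnemius by a difference of -1.11 ± 0.30 (edgeR adjusted p = 0.0222). This call was lost without HL1002P fat replicate 1 or 2 (adjusted p = 0.0532 and 0.0517) or WT fat replicate 1 (adjusted p = 0.0533). The HH difference for Bmp6 was -0.64 ± 0.31 (edgeR adjusted p = 0.187). For Tfrc, whose fold changes were above 0 in fat and below 0 in muscle, the difference was 0.99 ± 0.38 in HL1002P (edgeR adjusted p = 0.0696) and 1.02 ± 0.40 in HH (adjusted p = 0.105). Slc40a1 gave 1.12 ± 0.47 in HL1002P (edgeR adjusted p = 0.0923) and Trf -1.05 ± 0.44 (adjusted p = 0.09). Without the 3 muscle-rich fat libraries these 3 genes were called for HL1002P (edgeR adjusted p = 0.0424 for Tfrc, 0.0191 for Slc40a1 and 0.0268 for Trf). Leaving out HL1002P fat replicate 4 alone gave adjusted p = 0.0307 for Tfrc and 0.0428 for Slc40a1, and leaving out WT gastrocnemius replicate 3 gave adjusted p = 0.0478 for Tfrc.

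Fat and gastrocnemius of WT mice held these genes in different proportions. Levels between genes are compared per length, as CPM divided by transcript length in kilobases (RPKM). In WT fat Ftl1 (2074 ± 442 RPKM) and Fth1 (1809.9 ± 376 RPKM) were within their spread of each other, Trf followed (853 ± 299.9 RPKM), and Tfr2, Tfrc, Slc40a1 and Bmp6 lay together at 11.4 ± 11.9, 6.77 ± 1.27, 6.64 ± 1.19 and 5.72 ± 1.07 RPKM. Hamp at 0.563 RPKM and Hamp2 at 0.206 RPKM were lowest. In HL1002P fat Hamp reached 19.2 RPKM and Tfr2 was 0.774 ± 0.141 RPKM, and in HH fat Hamp reached 14.2 RPKM and Tfr2 was 0.17 ± 0.112 RPKM. In WT gastrocnemius Fth1 led (1800.3 ± 159 RPKM), then Ftl1 (229 ± 34.1 RPKM), then Trf (22.9 ± 9.96 RPKM) and Tfrc (18.9 ± 7.58 RPKM) within their spread, then Slc40a1 (7.27 ± 1.65 RPKM) and Bmp6 (2.99 ± 0.256 RPKM), with Tfr2, Hamp2 and Hamp at or below 0.155 RPKM (SD, n = 4).

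WT fat was set against WT gastrocnemius in a fit of all 23 libraries, and here the scaling decided part of the calls. With TMM factors across both tissues the median log2 difference of all genes was 0.30, and with total counts alone, an alternative added after seeing the data, it was 1.47. The share of all genes called was 73.5% with TMM (41.6% higher and 31.9% lower in fat) and 83.7% with total counts (71.1% and 12.6%). Of the 7 genes not chosen on fat, 5 were called with TMM and 4 with total counts. Trf was higher in fat under both, by 3.97 ± 0.35 log2 units with TMM (edgeR adjusted p = 5.1e-09) and 5.09 ± 0.36 with total counts (adjusted p = 1.6e-10). Ftl1 was also higher under both, by 1.93 ± 0.19 (edgeR adjusted p = 1.9e-08) and 3.08 ± 0.19 (adjusted p = 2.9e-11). Tfrc was lower under both, at -2.74 ± 0.28 (edgeR adjusted p = 4.7e-08) and -1.58 ± 0.29 (adjusted p = 4.7e-05). The calls for Slc40a1 and Fth1 held with TMM only: Slc40a1 was -1.38 ± 0.34 (edgeR adjusted p = 0.00116) with TMM and -0.18 ± 0.32 (adjusted p = 0.602) with total counts, and Fth1 -1.24 ± 0.18 (adjusted p = 3.5e-06) and -0.087 ± 0.15 (adjusted p = 0.599). Bmp6 turned, at -0.31 ± 0.22 (edgeR adjusted p = 0.216) with TMM and 0.86 ± 0.21 (adjusted p = 0.00106) with total counts. Hamp2 was not called under either, at -0.26 ± 1.10 (edgeR adjusted p = 0.838) and 0.78 ± 1.09 (adjusted p = 0.508). The CPM and RPKM levels given for the tissues were scaled within each tissue and lie near the total-count differences. Tfr2 averaged 33.4 CPM in WT fat and 0.454 CPM in WT gastrocnemius, in both with the highest value in a library carrying Y-linked transcripts.

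The wider iron pathway was read from 5 lists with 87 genes in the table, of which 86 were tested in fat. In HL1002P fat 4 rose, 20 fell and 62 did not pass the test (27.9% called, against 31.8% of all genes), and their median log2 fold change was -0.39, against -0.068 over all genes. In HH fat 3 rose, 9 fell and 74 did not pass (14%, against 20.8%), with a median of -0.15, against -0.056. The HL1002P count of 24 was 13 without WT replicate 1, 14 without WT replicate 2, and 8, 9 and 11 without HL1002P replicate 1, 2 and 3. The HH count of 12 was 5 without WT replicate 1, 6 without WT replicate 2, 22 without WT replicate 3, 4 without HH replicate 2 and 3 without HH replicate 3. Among the 24 regulators of hepcidin, 1 rose and 9 fell in HL1002P (41.7% called, against 31.8% of all genes), and 1 rose and 5 fell in HH (25%, against 20.8%). Il6ra, the interleukin-6 receptor chain, rose in both: 44 ± 7.58 CPM in HL1002P, 53.3 ± 5.79 CPM in HH and 31.5 ± 4.57 CPM in WT, log2 fold changes of 0.48 ± 0.15 (edgeR adjusted p = 0.0315) and 0.76 ± 0.15 (adjusted p = 0.0124).

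The regulators that fell included genes of both stimulating and restraining roles. Bmpr1a, a type I BMP receptor, had 36.8, 39, 32.5 and 88.1 CPM in HL1002P fat, 60.1, 42.7, 24.4 and 51.2 CPM in HH fat and 149.8, 163, 106 and 116 CPM in WT fat, with no overlap, as for 6.81% of all genes, and log2 fold changes of -1.45 ± 0.35 (edgeR adjusted p = 0.0138) and -1.58 ± 0.35 (adjusted p = 0.0152). Hfe, the haemochromatosis gene whose protein acts upstream of hepcidin, averaged 41.2 ± 3.53 CPM in HL1002P fat and 138 ± 83.7 CPM in WT fat, a log2 fold change of -1.75 ± 0.38 (edgeR adjusted p = 0.0107), and in HH it was -1.50 ± 0.38 (adjusted p = 0.0224). Tmprss6, a protease that restrains hepcidin by cleaving the BMP co-receptor hemojuvelin, had 0.172 to 2.04 CPM in HL1002P, 0.165 to 0.584 CPM in HH and 1.37 to 9.76 CPM in WT fat, with edgeR adjusted p = 0.0407 in HL1002P and 0.0195 in HH. Smad6, an inhibitory SMAD, averaged 9.67 ± 1.31 CPM in HH and 27.5 ± 6.74 CPM in WT fat, a log2 fold change of -1.51 ± 0.32 (edgeR adjusted p = 0.0144), and -1.40 ± 0.32 in HL1002P (adjusted p = 0.0124).

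Of 20 genes of iron uptake, release from storage and export, 0 rose and 2 fell in HL1002P fat (10% called, against 31.8% of all genes). In HH fat 0 rose and 1 fell (5%, against 20.8%). The endosomal ferrireductase gene Steap3 averaged 30.4 ± 6.99 CPM in HL1002P and 84.9 ± 40.4 CPM in WT (edgeR adjusted p = 0.0109), and Heph, a ferroxidase that works with ferroportin, 56.3 ± 19.8 CPM in HL1002P and 143 ± 57.1 CPM in WT (adjusted p = 0.0337). Its relative Hephl1 averaged 0.327 ± 0.179 CPM in HH and 3.47 ± 3.05 CPM in WT (edgeR adjusted p = 0.0396).

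Of 9 plasma proteins that bind iron or haem and their receptors, 0 rose and 3 fell in HL1002P, and 1 rose and 1 fell in HH, with medians of -1.05 and -0.74. The shares called were 33.3% in HL1002P and 22.2% in HH, against 31.8% and 20.8% of all genes. Hp, haptoglobin, which binds free haemoglobin, had 657, 721, 887 and 584 CPM in HL1002P fat, 1951, 731, 365 and 962 CPM in HH fat and 5903, 8793, 775 and 796 CPM in WT fat, so WT replicates 1 and 2 were high and the others overlapped the mutants. Its log2 fold change was -2.51 ± 0.78 in HL1002P (edgeR adjusted p = 0.0315) and -2.02 ± 0.76 in HH (adjusted p = 0.0762). Hpx, haemopexin, which binds free haem, had 0.344 to 0.748 CPM in HL1002P, 0.33 to 0.877 CPM in HH, and 9.63, 13.6, 0.856 and 0.795 CPM in WT fat, the same pair of WT libraries being high. Lrp1, a receptor that takes up haem bound to haemopexin, averaged 430.1 ± 117 CPM in HL1002P and 1001 ± 175 CPM in WT (edgeR adjusted p = 0.0114). The gene that rose in HH was Lrp2, with a mean under 1 CPM.

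Haem and mitochondrial iron genes were the remaining lists. Of 18 haem genes 5 fell in HL1002P and 2 in HH, and none rose in either. That was 27.8% and 11.1% called, against 31.8% of all genes in HL1002P fat and 20.8% in HH fat. Slc48a1, a haem transporter, averaged 142 ± 37 CPM in HL1002P, 159 ± 55.2 CPM in HH and 388 ± 169 CPM in WT, with edgeR adjusted p = 0.013 and 0.0258. Blvra, a biliverdin reductase, fell by 0.75 (edgeR adjusted p = 0.0245) in HL1002P and by 0.91 (adjusted p = 0.0189) in HH on the log2 scale. Of 15 mitochondrial genes tested, 3 rose and 1 fell in HL1002P (26.7% called), and 1 rose in HH (6.67% called). Slc25a37, mitoferrin-1, the carrier that brings iron into mitochondria, had 75, 62.1, 74.7 and 51 CPM in HL1002P, 58.1, 76.6, 85.3 and 50.3 CPM in HH and 24.1, 28.8, 47.5 and 36.2 CPM in WT fat. All mutant libraries were above WT, as for 11% of all genes, and the log2 fold changes were 0.94 ± 0.23 (edgeR adjusted p = 0.015) and 0.98 ± 0.23 (adjusted p = 0.0182). Hscb, which serves iron-sulphur clusters, rose by 0.50 log2 units in HL1002P (edgeR adjusted p = 0.0454), and Glrx5, of the same pathway, fell by 0.74 (adjusted p = 0.0478).

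**Figure D5:**
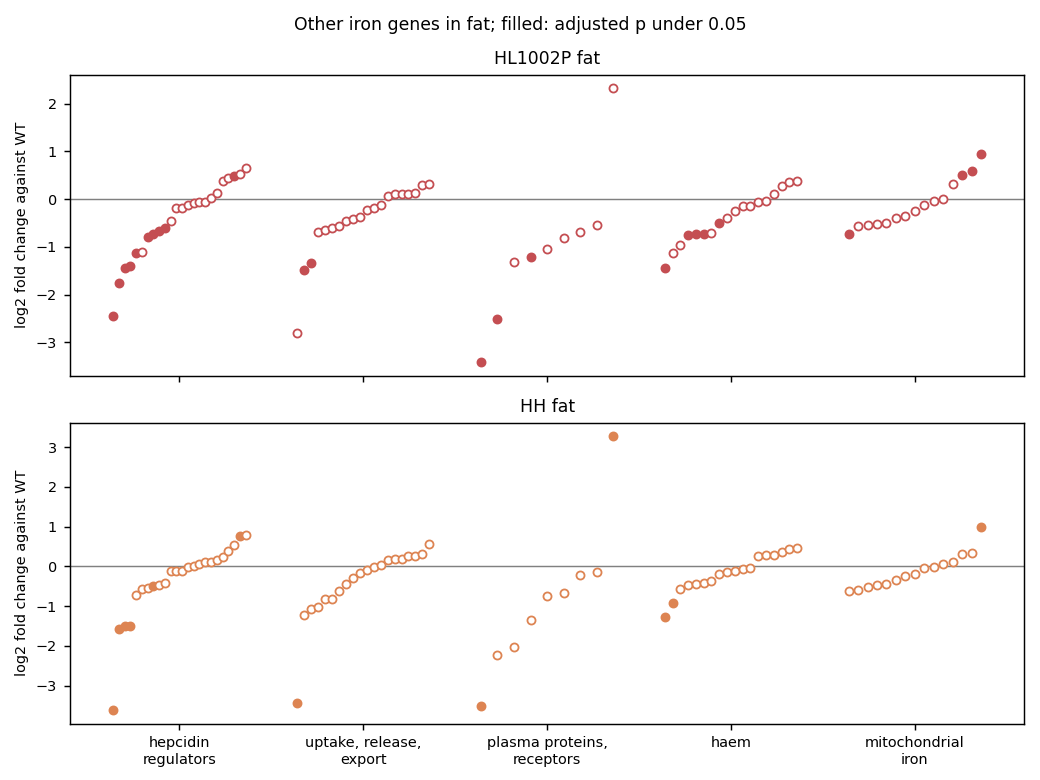
Log2 fold change against WT of every tested gene of the 5 iron lists in HL1002P fat (above) and HH fat (below), 1 point per gene, ordered by fold change within each list. Filled points have an edgeR adjusted p under 0.05, 4 above and 20 below 0 in HL1002P, and 3 above and 9 below 0 in HH.

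In gastrocnemius 80 genes of these lists were tested. In HL1002P 0 were called by edgeR (against 0.117% of all genes), with 8 at an unadjusted p under 0.05 (10.5% of all genes had this) and 1 called by DESeq2. In HH 1 was called by edgeR (1.25%, against 0.377% of all genes). That gene was Abcg2, an exporter that carries porphyrins among other substrates, with 33.6 ± 2.28 CPM in HH and 18.3 ± 1.67 CPM in WT, a log2 fold change of 0.88 ± 0.15 (edgeR adjusted p = 0.0315). Leaving out any 1 of the 7 libraries compared lost this call. In the interaction fit 14 of 71 genes of the lists were called for HL1002P (19.7%, against 19% of all genes) and 3 for HH (4.23%, against 7.39%). The HL1002P count was 4 without WT fat replicate 1 and 24 without HL1002P fat replicate 4, the ends of its range over single libraries left out.

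Over the 12 fat libraries the genes whose log2 CPM followed Hamp most closely among 14348 genes were Madcam1 (r = 0.983), Snap91 (0.983), 5730488B01Rik (0.974), Plxnc1 (0.971) and Kcng1 (0.97). Madcam1, the addressin of high endothelial venules, averaged 18.1 CPM in HL1002P, 13 CPM in HH and 0.84 CPM in WT. Tfr2 was followed by Slc16a1 (0.963), Nepn (0.96), Lipf (0.951), Tph2 (0.951) and Dtx2 (0.95). For Bmp6 the closest were Npr2 (0.986) and Sec31b (0.979), for Tfrc Gpr34 (0.941), Cd5l (0.94) and Lyve1 (0.939), for Trf Ubtd1 (0.972), for Fth1 Atp5d (0.965), for Ftl1 Hmox1 (0.914) and for Slc40a1 Mettl25 (0.76). Among the members, r was 0.819 between Hamp and Tfrc, -0.826 between Hamp and Bmp6, -0.781 between Hamp and Trf, -0.695 between Hamp and Tfr2, and 0.755 between Tfr2 and Trf. These correlations are descriptions over libraries that share genotype, sex and depth differences.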

How the data were processed

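RNA from fat and gastrocnemius was sequenced after library preparation with the TruSeq RNA v2 kit, which keeps no strand, per the labels' protocols. The deposited table holds raw counts per gene symbol for 23 libraries. The authors used TopHat2 2.0.14, Bowtie2 2.2.6, featureCounts 1.4.6 and the mm10 build, per the submitters' processing notes; annotation, strand setting and the treatment of reads with several matches are not given in the sources used here. Gene positions are from GENCODE M21 (GRCm38, the same assembly as mm10).

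Counts were fitted with edgeR 4.0.16 in R 4.3.3 (quasi-likelihood F test, TMM scaling, filterByExpr with a minimum count of 10 by genotype, 1 fit per tissue, Benjamini-Hochberg adjustment over all genes tested, threshold 0.05). All 9 genes passed the filter in fat and 6 in gastrocnemius. The interaction fit kept genes averaging 1 CPM or more in both tissues. CPM were computed on TMM-scaled library sizes within each tissue, and RPKM from these and the length of the first-listed GENCODE transcript. Correlations used log2 CPM with a prior count of 2. Alternatives were DESeq2 1.42.0, other scalings and filters, a replicate block, a sex term and leaving out each library; the scripts were tested on simulated data. Same-numbered HL1002P and HH gastrocnemius libraries deviated together (r from 0.217 to 0.286 over 3 pairs, a check on the data, since no label states a pairing), while in the other comparisons at least 1 pair had r of 0.1 or lower. The members, the iron lists and the marker lists were chosen with earlier results of these data known. Named iron genes are the 3 largest rises and 3 largest falls past the test in each list with a mean of at least 1 CPM; 1 gene that meets this rule is not reported here. Intervals and floors cover counting error only.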

Additional observations from a re-analysis of the deposited data

Results flagged for a closer look

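Single libraries stood far from the others of their group in 5 places among 44 groups of 4 examined. The rule flags about 1 in 20 groups of normally distributed values. Several flagged groups hold few counts, where that rate does not hold, so the number flagged is not read against it. Hamp was 0.0467 CPM in HL1002P gastrocnemius replicate 3, resting on 2 counts, and 0 in the other 3. Hamp2 was 1.71 CPM in HH fat replicate 3, and 0.32 CPM in WT fat replicate 2, the library without which edgeR called Hamp2 against WT in both mutants. Tfr2 was 1.43 CPM in WT gastrocnemius replicate 2. Slc40a1 was 45.9 CPM in HL1002P fat replicate 1. The effect of HL1002P on Bmp6 differed between tissues, with a tested difference of -1.11 log2 units (fat minus gastrocnemius).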

How the results depend on the processing

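No fold change of the 9 genes that was called with TMM over all libraries changed sign under any alternative run. For the iron-list genes only the number of calls was followed, not the sign. Of the 7 genes not chosen on fat, 2 were called in HL1002P fat, 4 with DESeq2, 0 with the replicate block and 0 to 4 when 1 library was left out; for the 86 iron-list genes the 24 calls became 0 with the block and 8 to 31. In HH fat the 0 and 12 calls became 2 and 25 with DESeq2, 6 list genes with the block, and 0 to 1 and 3 to 22 when 1 library was left out. Restricting to libraries with Y-linked transcripts, chosen after seeing the data, gave 41 list genes in HL1002P fat, 1 member and 32 list genes in HH fat, and 0 list genes in HH gastrocnemius. Leaving out the 3 muscle-rich fat libraries, also chosen after seeing the data, gave 39 list genes in HL1002P fat and 1 and 35 in HH fat; for the interaction it gave 4 and 25 (HL1002P, 1 and 14 before) and 12 list genes (HH, 3 before). In gastrocnemius DESeq2 called 1 and 1 for HL1002P, 1 and 2 for HH, and 1 list gene between the mutants; the block and leaving out 1 library left 0 list genes for HH. The interaction calls ranged from 0 to 3 and 4 to 24 for HL1002P and from 0 to 7 list genes for HH, with 5 under the block. The cause of these shifts was not tested. Same-numbered mutant and WT fat libraries did not all deviate together (r from -0.312 to 0.385 for HL1002P and -0.391 to 0.451 for HH). Between HL1002P and HH fat r was 0.0352 to 0.527. In every fat group replicates 1 and 2 carried Y-linked transcripts and replicate 4 carried Xist, so replicate number partly follows sex. What the losses under the block in fat reflect was not tested. Between HL1002P and HH gastrocnemius, whose same-numbered libraries deviated together, the block changed no call. With 1 library left out, Hamp ranged from 4.53 to 5.83 in HL1002P and 4.35 to 5.41 in HH, and Tfr2 from -4.26 to -3.16 and -6.53 to -5.35; the block gave Tfr2 -2.78 and -5.37. Log2 values of 18 uncalled results, none over 0.44 in size, changed sign under at least 1 alternative. In HL1002P fat Slc40a1 was -0.0017 and Ftl1 -0.079 with a sex term and Ftl1 -0.14 over libraries with Y-linked transcripts; leaving out 1 library gave -0.32 to 0.36 and -0.078 to 0.16. In HH fat Slc40a1 was 0.35 over libraries with Y-linked transcripts and -0.52 to 0.15. Between HL1002P and HH fat, Hamp was -0.15 to 0.69, Tfrc -0.047 to 0.18 and Slc40a1 -0.22 to 0.69. In HL1002P gastrocnemius Trf was -0.023 with a sex term, -0.23 over libraries with Y-linked transcripts and -0.17 to 0.25, and Bmp6 -0.1 over those libraries and -0.032 to 0.19. In HH gastrocnemius Trf was -0.1 with the block, -0.19 over libraries with Y-linked transcripts and -0.27 to 0.25, and Fth1 -0.045 to 0.27. Between the mutants in gastrocnemius Tfrc was -0.077 over those libraries and -0.22 to 0.39, Slc40a1 -0.17 to 0.07, Fth1 -0.23 to 0.094, Bmp6 -0.18 to 0.042 and Trf -0.18 to 0.28. The HH interaction of Ftl1 was -0.23 to 0.0065. Between WT tissues, total counts without a scaling factor gave Hamp2 0.78 and Bmp6 0.86. By CPM in place of RPKM, Trf led Ftl1 and Fth1 in WT fat. Depth limits Hamp, Hamp2 and Tfr2 in gastrocnemius and Hamp in WT fat, which lie near the floor of 3 counts; shared sequence limits Ftl1, Trf and Hamp2.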
